A study of Homo sapiens with 12 samples.

Results

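The genes described here are 35 genes of nucleolar ribosome production, chosen by name from a list of nucleolar proteins together with MYC, and all 35 were found among the 13937 genes of the expression table. All 35 passed the filter on low values and were tested. They were followed in WI-38 cells, a human diploid lung fibroblast line, that had been transfected with small interfering RNAs (siRNAs), which lower the messenger RNA of a chosen gene. There were 6 siRNA combinations with 2 libraries each, 12 libraries in all. The doubly treated groups received the siRNAs against YAP and TAZ with siRNA against cGAS (the cGAS_YT group) or against STING (the STING_YT group). The single treatments were YAP and TAZ siRNAs (YT), cGAS siRNA and STING siRNA, each combined with the control siRNA siAS by the library titles. The control cells received only siAS. The series asks how loss of YAP and TAZ, the transcriptional coactivators of the Hippo pathway, changes fibroblast gene expression, and whether cGAS, a sensor of cytosolic DNA, and its downstream adaptor STING take part.

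Ribosomes begin in the nucleolus, where RNA polymerase I copies the ribosomal DNA into a long precursor RNA. Small nucleolar ribonucleoproteins (snoRNPs) of the box C/D type add methyl groups to this precursor and those of the box H/ACA type convert uridines to pseudouridines. Large assemblies of processing factors, the small subunit processome and the pre-60S particles, then fold and cut the RNA while ribosomal proteins bind to it. MYC, a transcription factor that binds the E-box letters CACGTG, is known to activate many genes of this pathway, and growing cells make more of their products than resting cells do.

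The start regions of the genes were read from the RefSeq promoter table, build GRCh38.p14, which runs from 250 bases before to 50 bases after each annotated start. It held 28 of the 35 genes, 6 of them with 2 promoters. The palindromic E-box CACGTG, which reads the same on both strands, lay in a promoter of 14 of the 28 genes (50%), of 28.8% of 80 other ribosome biogenesis genes, of 12.5% of the 9719 tested genes that the table holds and of 8.77% of all 27305 genes in it. Within 50 bases of the start it was found in 13 of the 28 genes (46.4%) and in 5.20% of tested genes. Median GC content was 64.5% in the promoters of the 28 genes and 64.7% in those of all tested genes.

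The following windows show the E-box, in capitals, in the 8 genes that both hold it and had lower RNA after YAP and TAZ siRNAs in all 3 comparisons given further on, so that its place and its neighbouring letters can be compared. Each is written 5′ to 3′ on the gene's strand, in build GRCh38.p14.
BYSL, chr6:41921515-41921544, plus strand: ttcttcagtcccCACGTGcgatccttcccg
DDX21, chr10:68956604-68956633, plus strand: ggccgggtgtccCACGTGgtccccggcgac
GAR1, chr4:109815781-109815810, plus strand: gggccagaggggCACGTGgcgccggtgagt
NOC3L, chr10:94362903-94362932, minus strand: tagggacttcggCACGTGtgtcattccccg
NOP14, chr4:2963374-2963403, minus strand: tccgcggcccggCACGTGtcttagggtagc
NOP2, chr12:6568242-6568268, minus strand: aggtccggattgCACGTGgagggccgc
PNO1, chr2:68157885-68157914, plus strand: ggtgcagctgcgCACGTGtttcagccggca
WDR43, chr2:28894658-28894687, plus strand: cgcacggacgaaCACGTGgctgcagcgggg
In 10 of the 14 genes the E-box lay after the annotated start base of its promoter and in 4 before it, as the plot of E-box positions shows. That start need not be the outermost start of the gene. The DDX21 window, for example, lies inside the gene, which begins at position 68956170 of chromosome 10. Of the 14 genes with an E-box 8 were lower in all 3 comparisons, and of the 14 without one in this window 7 were. The share of all genes lower in all 3 was not counted. The median log2 change after YAP and TAZ siRNAs was -0.42 in genes with an E-box and -0.31 in genes without, in cells that were not depleted of cGAS or STING. On cGAS depletion these medians were -0.61 and -0.59, and on STING depletion -0.65 and -0.62. The 6-letter core of the sites bound by TEAD factors, the DNA-binding partners of YAP and TAZ, written GGAATG or CATTCC on the other strand, was found in 6 of the 28 genes (21.4%) and in 15.1% of tested genes. A match is a match of letters only, and binding was not measured.

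**Figure D1:**
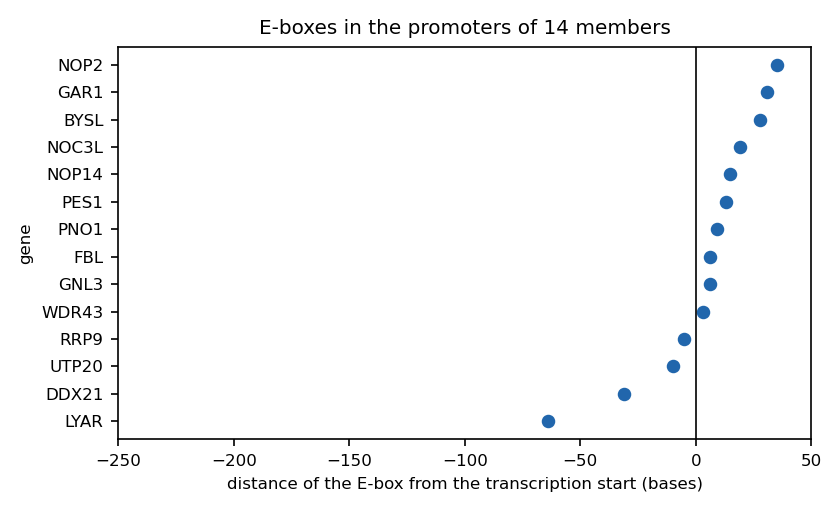
Position of the E-box CACGTG in the 14 genes that hold it, relative to the annotated start of its promoter (horizontal axis, bases, 0 is the start base). The window runs from 250 bases before to 50 bases after that start, which need not be the outermost start of the gene. The points lie between 64 bases before the start (LYAR) and 35 bases after it (NOP2), and 10 of them lie after it.

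Another shared feature lies within the genes themselves. In the GENCODE 29 annotation, 7 of the 35 genes (20%) carry small nucleolar or related RNAs inside them, 24 in all, against 1.75% of 11750 tested protein-coding genes. GNL3 holds 6, NOP56 holds 5, NOP58 holds 4, WDR43 and NCL hold 3 each, DKC1 holds 2 and POLR1C holds 1. The snoRNAs themselves were not measured, since the libraries were made from the 3′ ends of polyadenylated RNA.

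Library totals were 17790774 to 20650727 reads. YAP1 RNA in the 3 groups given YAP and TAZ siRNAs was 13.1% to 21.1% of the control mean and WWTR1 (TAZ) RNA 8.70% to 14.2%. MB21D1, the table's symbol for cGAS, was at 18.7% of control in cGAS_YT and 23.6% in cGAS cells, and TMEM173 (STING) at 6.66% in STING_YT and 7.39% in STING cells. The 9 fibroblast markers were all in the table, with a summed level of 24714 to 39489 CPM (a read count relative to library size, scaled between libraries by the authors). Of the markers of other cell types the table held KRT19 (2.83 to 14.5 CPM) of 4 epithelial and CD68 (3.33 to 6.23 CPM) of 3 leukocyte genes, and none of 3 endothelial genes. Within groups, 171 genes of at least 5 CPM were more than 2-fold apart between the YT libraries, against 36 in cGAS_YT, 1 in STING_YT, 1 in cGAS, 10 in STING and 22 in control cells. Whether the libraries of a group are separate cultures is not said in the labels. All p-values therefore measure only the spread between these libraries, which may be technical.

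The summed level of the 35 genes was lower in every group that received YAP and TAZ siRNAs. It averaged 1904 ± 135 CPM in cGAS_YT and 1724 ± 27.1 CPM in STING_YT cells, and 2170.1 ± 149 CPM in YT, 2905 ± 0.512 CPM in cGAS, 2784 ± 53.4 CPM in STING and 2892 ± 155 CPM in control cells (SD, n = 2 each). As shares of control these sums were 65.9% in cGAS_YT, 59.6% in STING_YT, 75.0% in YT, 100.5% in cGAS and 96.3% in STING cells. No library with YAP and TAZ siRNAs reached any library without them, and cGAS or STING siRNA alone left the sum within 1 SD of the control mean. CPM is a share of each library's reads, so fewer cells of a type and less RNA per cell cannot be told apart.

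The sum is carried by a few abundant genes, and the genes differ widely in level. Because about 1 fragment is counted per transcript in this 3′ end protocol, CPM can be compared between genes without a correction for length. NCL averaged 613 ± 19.3 CPM in control cells, the highest of the 35, followed by DDX21 and NPM1, and NOC4L averaged 7.25 ± 0.27 CPM, the lowest (SD, n = 2 each). The heatmap, which gives every gene the same weight, showed the same separation of libraries, with a median log2 ratio to the control mean of -0.74 and -0.92 in cGAS_YT, -0.77 and -0.71 in STING_YT, -0.50 and -0.34 in YT, -0.11 and -0.12 in cGAS and -0.02 and -0.05 in STING libraries.

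**Figure D2:**
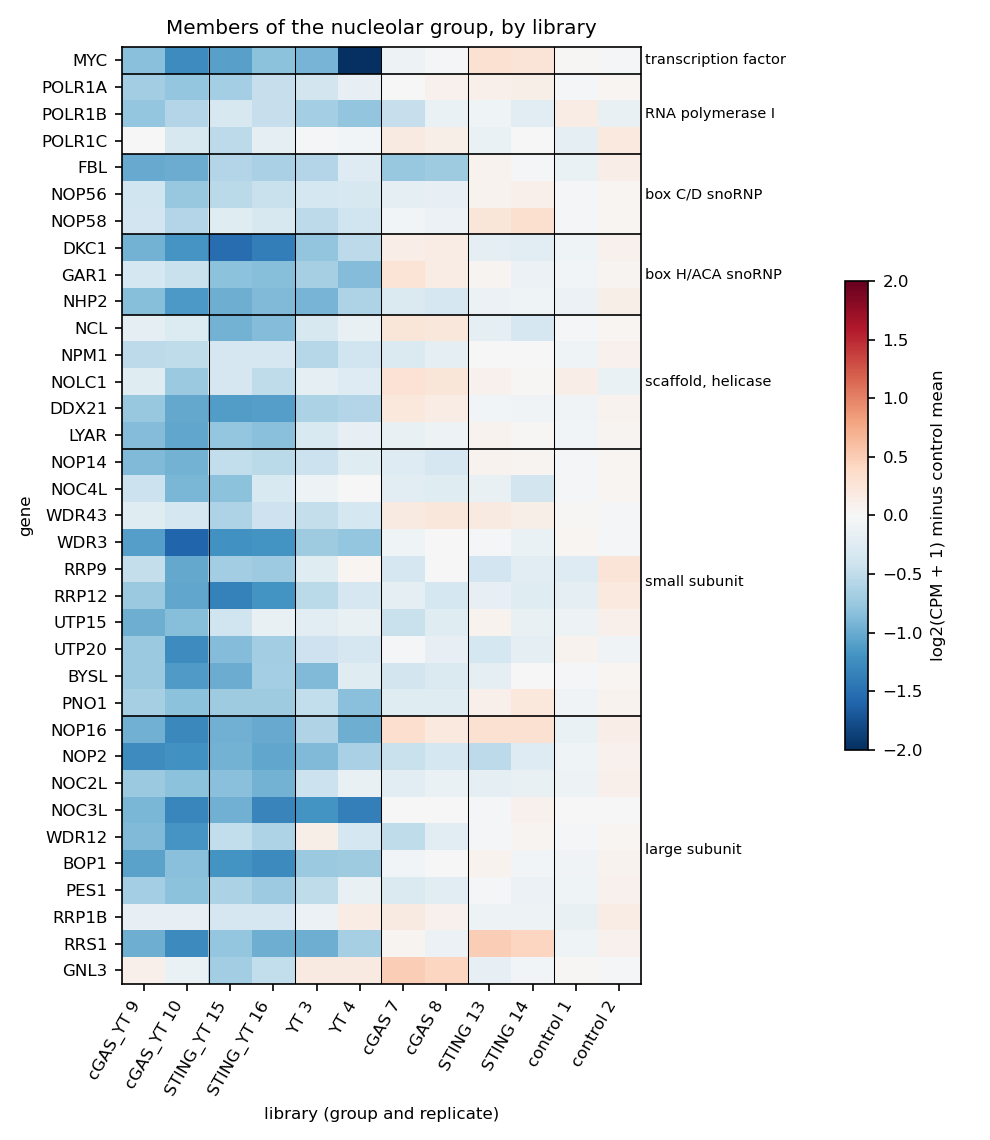
Log2 ratio of each library's value (CPM + 1) to the mean of the control libraries for the 35 genes (rows, by role) in the 12 libraries (columns, by group). The 6 libraries with YAP and TAZ siRNAs on the left are mostly below control (blue), and their median over the genes lies between -0.92 and -0.34.

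The first comparison asks what YAP and TAZ siRNAs did on their own. By limma on log2(CPM + 1), with p-values adjusted by Benjamini-Hochberg over all 13894 genes tested and a threshold of 0.05, 21 of the 35 genes were lower in YT than in control cells and 0 were higher. Over all genes tested 20.9% were lower and 20.6% higher. The median log2 change of the 35 genes was -0.42 and that of all genes 0.00. MYC and NOC3L were more than 2-fold lower, and the other 19 called genes were lower by less than 2-fold. Values of the YT libraries lay below both control libraries, without overlap, in 29 genes, where 32% of all genes did so, and above both in 1, where 32.9% did. At an unadjusted p under 0.05 there were 25 of the 35 genes, and all genes were not counted at that threshold. On whole reads the count of lower genes was 22 with edgeR and 21 with DESeq2. Over all genes these tools called 5659 and 5491, both directions together. Leaving out 1 library at a time gave 16 to 24 called genes. A reference list of 21 cell cycle genes, whose RNA marks dividing cells, was lower in all 21 with a median log2 change of -2.22. Its part in the result for the nucleolar genes was not tested.

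MYC had 5.07 and 1.23 CPM in YT libraries, against 10.8 and 10.4 CPM in control libraries. With 96 and 24 reads, MYC differed more between the YT libraries than any other of the 35 genes, and both values lay below control. The log2 change was -1.65 ± 0.31 (SE, n = 2 each, limma adjusted p = 0.000493), and it was -2.38 without YT replicate 3 and -0.93 without YT replicate 4.

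Of the 3 RNA polymerase I subunits POLR1B was lower and POLR1A and POLR1C did not pass. POLR1A, the catalytic subunit, had 19.2 and 22.3 CPM in YT and 24.3 and 25.7 CPM in control libraries, a log2 difference of -0.26 ± 0.13 that did not pass (limma adjusted p = 0.113). POLR1B, the other large subunit, fell to 7.40 and 6.79 CPM in YT, against 13.9 and 11.2 CPM in control libraries (log2 change -0.74 ± 0.17, limma adjusted p = 0.00278). For POLR1C, which RNA polymerase III shares, the values were 18.9 and 18.6 CPM in YT and 16.7 and 22.3 CPM in control libraries, with the YT values inside the control range.

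All 3 box C/D proteins and all 3 box H/ACA proteins were lower. Fibrillarin (FBL), the methyltransferase of the box C/D particle, had 149 and 188 CPM in YT and 206 and 246 CPM in control libraries. Its partner NOP56 had 64.9 and 66.0 CPM in YT and 80.3 and 85.5 CPM in control libraries, and NOP58 had 66.5 and 72.5 CPM in YT against 93.6 and 98.9 CPM in control libraries. In none of the 3 did the groups overlap, and the log2 changes were -0.42 ± 0.10 for FBL, -0.34 ± 0.11 for NOP56 and -0.47 ± 0.09 for NOP58 (limma adjusted p = 0.00412, 0.0179 and 0.000633). Without control replicate 2 the calls of FBL (adjusted p = 0.0783) and NOP56 (0.113) were lost.

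The box H/ACA changes were larger, with a median log2 change of -0.77. Dyskerin (DKC1), the pseudouridine synthase that also belongs to telomerase, had 83.2 and 100.03 CPM in YT and 136 and 153 CPM in control libraries. GAR1, a protein that the mature particle needs for activity, fell to 32.0 and 27.6 CPM in YT, against 49.4 and 53.7 CPM in control libraries. NHP2, an RNA-binding core protein, fell to 25.8 and 32.4 CPM in YT, against 46.3 and 54.8 CPM in control libraries. The groups were separate in each, with log2 changes of -0.66 ± 0.10, -0.77 ± 0.11 and -0.78 ± 0.13 for DKC1, GAR1 and NHP2 (limma adjusted p = 0.000103, 2.85e-05 and 0.00018). NHP2 shares exon bases with RMND5B on the opposite strand, and reads of the pair could not be told apart because the strand setting of the counting is not given in the sources used here.

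Among the 5 genes of nucleolar scaffolds and helicases the changes were smaller than in the box H/ACA genes, with a median log2 change of -0.23. Nucleolin (NCL), which binds ribosomal DNA and precursor RNA, had 489.9 and 553 CPM in YT and 599 and 627 CPM in control libraries, and nucleophosmin (NPM1), a scaffold of the outer nucleolus, had 224 and 253 CPM in YT and 315 and 352 CPM in control libraries. DDX21, an RNA helicase of ribosomal RNA transcription and processing, had 221 and 230.1 CPM in YT and 329 and 361 CPM in control libraries. The log2 changes were -0.23 ± 0.09 for NCL, -0.48 ± 0.08 for NPM1 and -0.61 ± 0.09 for DDX21 (limma adjusted p = 0.0379, 0.000219 and 3.98e-05). The NCL call was lost without control replicate 1 (adjusted p = 0.0638), without control replicate 2 (0.167), without YT replicate 3 (0.178), without cGAS replicate 7 or 8 (0.0585 each) and without STING_YT replicate 15 (0.0543) or 16 (0.0542). NPM1 has 45 numbered pseudogenes in the annotation, so its level is uncertain where reads also match those copies. NOLC1, a chaperone of snoRNPs, had 51.0 and 48.5 CPM in YT and 63.3 and 53.0 CPM in control libraries, and LYAR, a nucleolar growth regulator, had 31.4 and 34.6 CPM in YT and 37.5 and 40.3 CPM in control libraries. Neither passed (limma adjusted p = 0.22 and 0.105).

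Of the 10 small subunit factors 5 were lower in YT cells. WDR3, a WD-repeat protein of the small subunit processome, had 27.0 and 25.8 CPM in YT against 46.3 and 43.7 CPM in control libraries, and PNO1, which binds late pre-40S particles, had 16.4 and 12.7 CPM in YT against 22.2 and 24.7 CPM in control libraries. NOP14 had 58.3 and 66.0 CPM in YT and 76.7 and 80.6 CPM in control libraries, and WDR43, another processome protein, had 113 and 123 CPM in YT and 161 and 155 CPM in control libraries. BYSL, a pre-40S assembly factor, had 11.7 and 18.8 CPM in YT and 21.7 and 23.2 CPM in control libraries. In all 5 the groups were separate, although the 2 BYSL values in YT lay far apart. Log2 changes ran between -0.75 ± 0.14 for WDR3 (limma adjusted p = 0.000334) and -0.34 ± 0.09 for NOP14 (0.00706). The call for BYSL (log2 change -0.57 ± 0.19, limma adjusted p = 0.027) was lost without YT replicate 3 (0.294), control replicate 1 (0.07) or control replicate 2 (0.131), and that for NOP14 without control replicate 2 (0.0547). The scaffold protein UTP20 had 23.1 and 24.4 CPM in YT and 32.6 and 29.5 CPM in control libraries and did not pass (limma adjusted p = 0.0602), but it did without cGAS_YT replicate 9 (0.0273) or 10 (0.0261). NOC4L, a partner of NOP14, RRP9, a protein of the U3 snoRNP, RRP12 and the processome protein UTP15 did not pass either. Their log2 differences were -0.05 for NOC4L, -0.11 for RRP9, -0.44 for RRP12 and -0.18 for UTP15.

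The large subunit factors held both the deepest of the lower genes after MYC and the only members with a positive sign. NOC3L, which is needed for pre-60S maturation, had 19.6 and 17.3 CPM in YT against 46.8 and 46.1 CPM in control libraries. RRS1, a partner of the 5S RNA particle, had 11.3 and 14.3 CPM in YT against 21.8 and 24.7 CPM in control libraries. NOP16 had 14.6 and 11.1 CPM in YT against 20.8 and 24.9 CPM, and NOP2, a methyltransferase of the large ribosomal RNA, had 13.5 and 16.2 CPM in YT against 24.2 and 27.7 CPM in control libraries. In all 4 every YT value was below every control value. The log2 changes were -1.29 ± 0.14 for NOC3L, -0.82 ± 0.15 for RRS1, -0.79 ± 0.16 for NOP16 and -0.77 ± 0.14 for NOP2 (limma adjusted p = 2.06e-06, 0.000461, 0.000758 and 0.00046).

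The PeBoW complex, which joins PES1, BOP1 and WDR12 and is needed to process the large subunit RNAs, was split. BOP1 had 17.0 and 17.5 CPM in YT and 27.6 and 30.8 CPM in control libraries (log2 change -0.72 ± 0.13, limma adjusted p = 0.000255). PES1 had 20.2 and 26.0 CPM in YT and 27.5 and 30.7 CPM in control libraries, and WDR12 had 28.5 and 20.2 CPM in YT and 25.4 and 26.7 CPM in control libraries. WDR12 overlapped between the groups, and neither PES1 (limma adjusted p = 0.0601) nor WDR12 passed, but PES1 did without YT replicate 4 (0.00687). GNL3 (nucleostemin), a GTPase of growing cells, had 68.0 and 68.2 CPM in YT and 61.0 and 59.3 CPM in control libraries, a log2 difference of 0.18 ± 0.10 that did not pass (limma adjusted p = 0.184). RRP1B, a nucleolar protein of pre-60S processing, had 50.2 and 60.6 CPM in YT and 48.9 and 60.4 CPM in control libraries, and NOC2L, a partner of NOC3L, had 38.4 and 46.8 CPM in YT and 48.3 and 55.6 CPM in control libraries, also without passing.

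**Figure D3:**
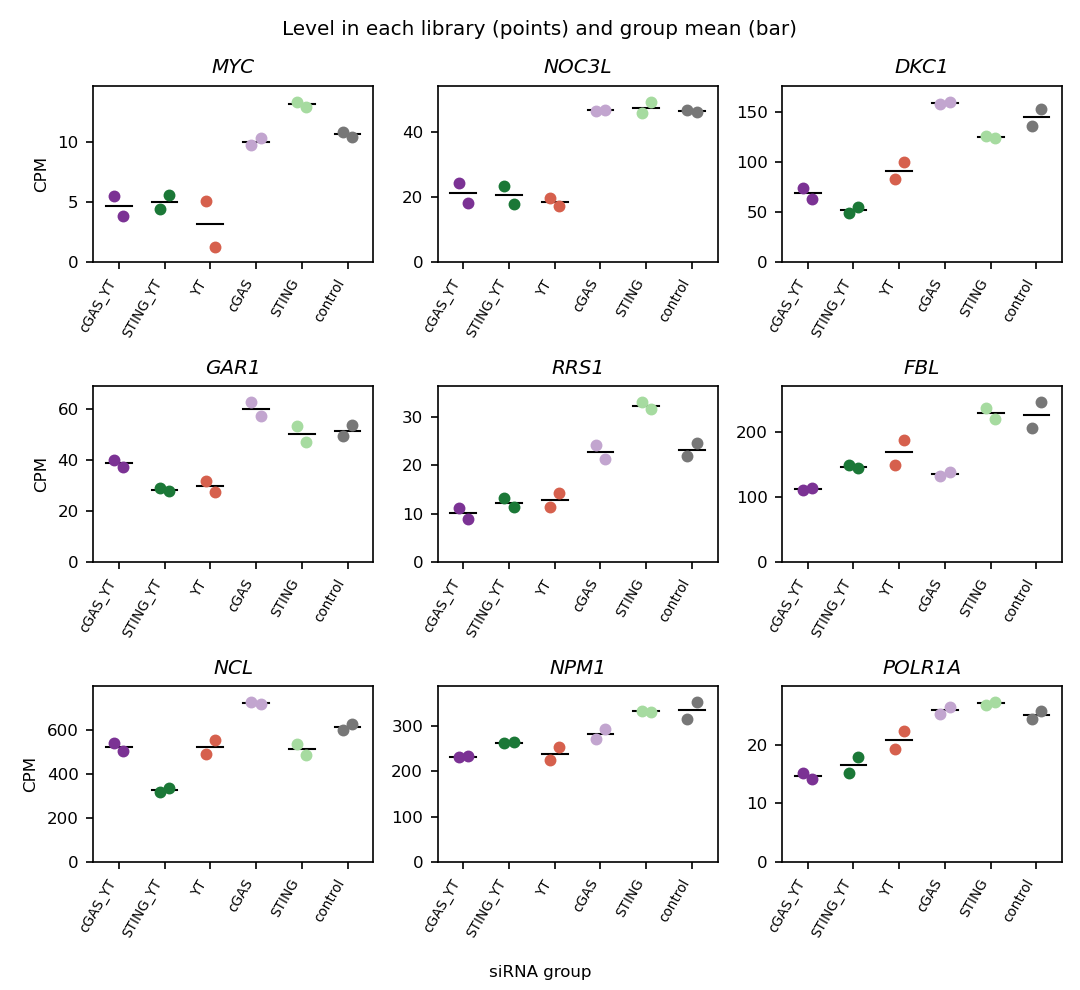
Level (CPM, linear axis starting at 0) of 9 genes in each of the 12 libraries, by group, with a bar at the mean of the 2 libraries. MYC, NOC3L, DKC1, GAR1 and RRS1 lie lower in the 3 groups with YAP and TAZ siRNAs than in the other 3, while FBL in cGAS cells (132 and 138 CPM) lies below control (206 and 246 CPM).

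Depletion of cGAS or STING alone asks whether these genes depend on the sensor or its adaptor when YAP and TAZ are intact. With cGAS siRNA 3 of the 35 genes were lower and 1 was higher than in control cells (limma), where 14.3% of all genes were lower and 11.1% higher. Their median log2 change was -0.11, against -0.02 over all genes. In 16 genes both cGAS values lay below both control values and in 8 above them, where 34.2% and 29.9% of all genes did. The cGAS, STING and YT groups were all compared with the same 2 control libraries. FBL had 132 and 138 CPM in cGAS libraries, against 206 and 246 CPM in control libraries, the largest change (log2 change -0.73 ± 0.10, limma adjusted p = 7.65e-05). GNL3 had 84.6 and 81.5 CPM in cGAS libraries, against 61.0 and 59.3 CPM in control libraries (log2 change 0.46 ± 0.10, limma adjusted p = 0.00331). NOP14 (-0.30 ± 0.09, limma adjusted p = 0.0225) and NPM1 (-0.24 ± 0.08, 0.044) were lower by small amounts. FBL and GNL3 were called whichever library was left out. The count was 9 without YT replicate 3 or 4 and 2 without control replicate 2 or cGAS replicate 7 or 8, the NOP14 call being lost without control replicate 2 (0.127) and cGAS replicates 7 (0.0709) and 8 (0.147). The NPM1 call was lost without control replicate 2 (0.292) and without any 1 library of the cGAS (0.28 and 0.0793), cGAS_YT (0.0513 each), STING (0.0655 each) or STING_YT (0.0667 each) groups. GNL3 shares exon bases with GLT8D1 on the opposite strand, so part of its reads could belong to that gene. The cell cycle list was lower in 17 of 21 genes with cGAS siRNA (median log2 change -0.85). Its part in these results was not tested.

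With STING siRNA 1 of the 35 genes was higher and 0 were lower than in control cells (limma), where 6.14% of all genes were higher and 8.86% lower. At an unadjusted p under 0.05 there were 4 of the 35 genes, and all genes were not counted at that threshold. By edgeR and DESeq2 2 and 3 of the 35 were called, where these tools called 2043 and 2106 of all genes. The median log2 change of the 35 genes was -0.04, against 0.00 over all genes. In 7 genes both STING values lay below both control values and in 9 above them, where 29% and 29.9% of all genes did. NOP58 had 114 and 121 CPM in STING libraries, against 93.6 and 98.9 CPM in control libraries (log2 change 0.28 ± 0.09, limma adjusted p = 0.0447), without overlap. RRS1 had 33.0 and 31.5 CPM in STING libraries, against 21.8 and 24.7 CPM in control libraries, and missed the threshold (log2 difference 0.46 ± 0.15, limma adjusted p = 0.0549). MYC had 13.3 and 12.9 CPM in STING libraries, against 10.8 and 10.4 CPM in control libraries, with no overlap and no call. The NOP58 call was lost without control replicate 1 (0.216) or 2 (0.0866), cGAS replicate 7 (0.0673) or 8 (0.0672), STING replicate 13 (0.122) or 14 (0.257) and STING_YT replicate 15 (0.0655) or 16 (0.0652), each of which left 0 called genes. The count was 4 without YT replicate 3 or 4 and 2 without cGAS_YT replicate 10. None of the 21 cell cycle genes was called in this comparison by limma.

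In cells depleted of cGAS, YAP and TAZ siRNAs lowered 30 of the 35 genes and raised 0 by limma, where 12.7% of all genes were lower and 15% higher. Their median log2 change was -0.62, against 0.03 over all genes, and 6 of the genes fell at least 2-fold on the log2(CPM + 1) scale. MYC, at -0.97 on that scale, is not among these 6, although its mean CPM was 46.8% of that in cGAS cells. All 35 had both cGAS_YT values below both cGAS values, where 30.2% of all genes did, and 0 had them above, where 36.6% did. Leaving out 1 library gave 19 to 32 lower genes, with 19 without cGAS_YT replicate 10, whose values were below those of replicate 9 in 28 of the 35 genes. In this background 15 of 21 cell cycle genes were lower and 1 was higher, with a median log2 change of -1.21.

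In STING-depleted cells YAP and TAZ siRNAs lowered 29 of the 35 genes and raised 0 by limma, where 19.8% of all genes were lower and 19.1% higher. Their median log2 change was -0.64, against 0.03 over all genes, with 9 genes at least 2-fold lower. In 34 genes both STING_YT values were below both STING values, where 35.6% of all genes were, and in 0 they were above, where 38.7% were. Leaving out 1 library gave 25 to 30. All 21 cell cycle genes were lower, with a median log2 change of -2.52. These 3 comparisons of YAP and TAZ siRNAs share no library, since each uses its own pair of groups, although all groups share 1 estimate of the spread. The same 19 genes were called lower in all 3 of them, 10 genes in 2, 3 genes (POLR1B, RRP9 and UTP15) in 1, and POLR1C, NOC4L and RRP1B in none. How many of all genes were lower in all 3 was not counted, so the 19 have no such share beside them. In the single comparisons 20.9% of all genes were lower in YT, 12.7% in cGAS_YT and 19.8% in STING_YT cells.

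**Figure D4:**
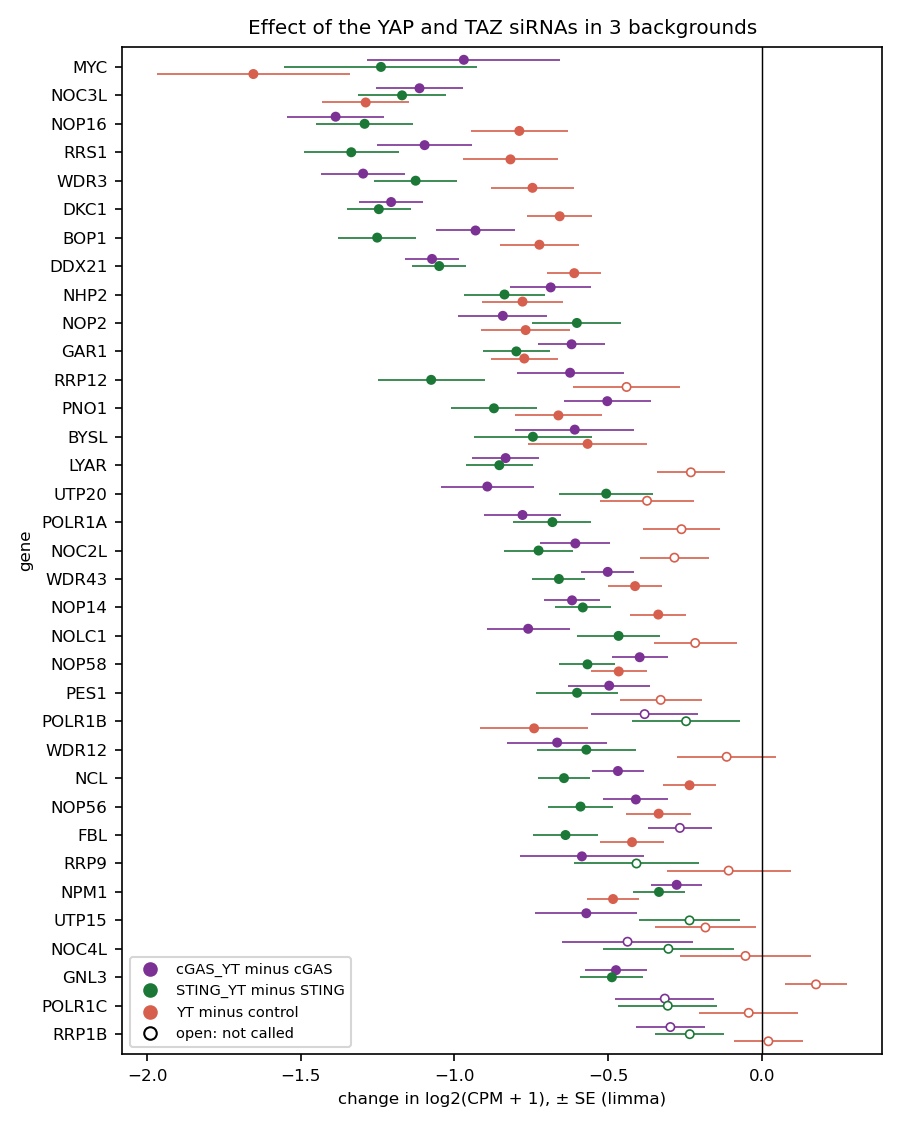
Log2 change after YAP and TAZ siRNAs with its standard error (horizontal axis) for the 35 genes in 3 comparisons, cGAS_YT against cGAS, STING_YT against STING and YT against control, filled where limma called the gene. All 35 values are below 0 in cGAS- and STING-depleted cells and 33 are in cells given YAP and TAZ siRNAs alone.

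MYC fell in both of these backgrounds too. It had 5.53 and 3.84 CPM in cGAS_YT against 9.75 and 10.3 CPM in cGAS libraries, and 4.44 and 5.54 CPM in STING_YT against 13.3 and 12.9 CPM in STING libraries. The groups did not overlap, with log2 changes of -0.97 ± 0.31 and -1.24 ± 0.31 on cGAS and STING depletion (limma adjusted p = 0.0297 and 0.00501). The call on cGAS depletion was lost without cGAS replicate 7 (0.104), cGAS replicate 8 (0.136) or cGAS_YT replicate 10 (0.22), and also with a pseudocount of 0.25 (0.0505), a constant prior (0.0831) and DESeq2 on whole reads (0.116). The call on STING depletion was lost without STING_YT replicate 15 (0.0519).

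POLR1A, which had missed the threshold in YT cells, was lower in both. It had 15.1 and 14.2 CPM in cGAS_YT against 25.3 and 26.5 CPM in cGAS libraries, and 15.2 and 17.8 CPM in STING_YT against 26.8 and 27.3 CPM in STING libraries. The log2 changes were -0.78 ± 0.13 and -0.68 ± 0.13 (limma adjusted p = 0.000236 and 0.000458). POLR1B had 6.89 and 8.04 CPM in cGAS_YT against 8.81 and 11.3 CPM in cGAS libraries, and 9.77 and 8.79 CPM in STING_YT against 11.8 and 10.6 CPM in STING libraries, and was called in neither. The differences between backgrounds did not pass for either subunit with all libraries. For POLR1A the change on cGAS depletion minus that with control siRNA was -0.52 ± 0.18 (limma adjusted p = 0.0692), and -0.62 without YT replicate 3.

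The snoRNP proteins kept their direction. DKC1 had 74.2 and 63.2 CPM in cGAS_YT against 158 and 160.1 CPM in cGAS libraries, and 49.6 and 54.9 CPM in STING_YT against 126 and 124 CPM in STING libraries. GAR1 had 40.1 and 37.4 CPM in cGAS_YT against 62.7 and 57.4 CPM in cGAS libraries, and 28.9 and 27.9 CPM in STING_YT against 53.2 and 47.2 CPM in STING libraries. Both genes were well separated in each background, with DKC1 at log2 changes of -1.21 ± 0.10 and -1.25 ± 0.10 and GAR1 at -0.62 ± 0.11 and -0.80 ± 0.11 on cGAS and STING depletion. FBL had 111 and 113 CPM in cGAS_YT against 132 and 138 CPM in cGAS libraries, a log2 difference of -0.27 ± 0.10 that missed the threshold (limma adjusted p = 0.0709), and passed it without YT replicate 3 (0.0102), without YT replicate 4 (0.0104) and with only the cGAS_YT and cGAS groups in the fit (0.0103). In STING-depleted cells it had 149 and 144 CPM in STING_YT against 237 and 220.3 CPM in STING libraries and passed (log2 change -0.64 ± 0.10, limma adjusted p = 0.000142).

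Among the processing factors the deepest changes on cGAS depletion were in NOP16 and WDR3. NOP16 had 11.2 and 8.72 CPM in cGAS_YT against 28.9 and 26.1 CPM in cGAS libraries (log2 change -1.39 ± 0.16, limma adjusted p = 7.26e-06), and WDR3 had 20.4 and 14.3 CPM in cGAS_YT against 42.2 and 45.0 CPM in cGAS libraries (log2 change -1.30 ± 0.14, limma adjusted p = 3.26e-06). On STING depletion RRS1 had 13.2 and 11.3 CPM in STING_YT against 33.0 and 31.5 CPM in STING libraries, the deepest change of the list there (log2 change -1.34 ± 0.15, limma adjusted p = 3.82e-06). BOP1 had 12.1 and 11.4 CPM in STING_YT against 30.8 and 28.1 CPM in STING libraries (log2 change -1.25 ± 0.13, limma adjusted p = 9.78e-07). In these 4 genes the doubly treated libraries lay far below those of the same background. RRP12, a factor of 40S export that had missed the threshold in YT cells, had 5.83 and 6.66 CPM in STING_YT against 14.7 and 13.8 CPM in STING libraries (log2 change -1.08 ± 0.17, limma adjusted p = 0.00012).

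NOC3L stood at a similar level in all 3 groups with YAP and TAZ siRNAs. It had 24.2 and 18.3 CPM in cGAS_YT against 46.4 and 46.9 CPM in cGAS libraries, and 23.5 and 17.9 CPM in STING_YT against 45.8 and 49.2 CPM in STING libraries. The 6 libraries with these siRNAs spanned 17.3 to 24.2 CPM and the 6 without them 45.8 to 49.2 CPM, so that no value of one set came near the other. PES1, WDR12 and BYSL were lower in both backgrounds, but leaving out 1 library ended the call in at least 1 background for each of them. PES1 lost its call on cGAS depletion without cGAS replicate 8 (0.0829) or cGAS_YT replicate 10 (0.0946). WDR12 lost it there without the same libraries (0.0869 and 0.0825), and on STING depletion without STING replicate 14 (0.0686) or STING_YT replicate 16 (0.0822). BYSL lost it on cGAS depletion without cGAS replicate 7 (0.0912), cGAS replicate 8 (0.136) or cGAS_YT replicate 10 (0.251), and on STING depletion without STING replicate 14 (0.0585) or STING_YT replicate 15 (0.079).

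Whether the effect of YAP and TAZ siRNAs itself differed between backgrounds was tested as an interaction, the log2 change on cGAS or STING depletion minus that in cells with control siRNA. By limma 4 of the 35 genes had a more negative change on cGAS depletion and 0 a less negative one, where 5.93% of all genes had a negative and 7.5% a positive interaction. On STING depletion 5 had a more negative change and 0 a less negative one, where 4.53% of all genes were negative and 3.35% positive. The median interaction was -0.27 for cGAS and -0.25 for STING, against 0.02 and 0.00 over all genes. Both interactions use the same 2 YT and 2 control libraries, so they are not independent of each other. Of the 21 cell cycle genes 11 had a positive and 0 a negative interaction with cGAS (median 0.70), and 1 had a positive and 0 a negative one with STING (median -0.21).

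DKC1, DDX21, LYAR and GNL3 were called in both interactions and NCL in that with STING. DDX21 had 202 and 169 CPM in cGAS_YT against 398 and 381 CPM in cGAS libraries, and 158 and 160.4 CPM in STING_YT against 332 and 329 CPM in STING libraries. LYAR had 20.8 and 18.4 CPM in cGAS_YT against 35.0 and 36.2 CPM in cGAS libraries, and 22.3 and 21.4 CPM in STING_YT against 40.7 and 39.8 CPM in STING libraries. Both genes dropped below every YT library when a depletion was combined with YAP and TAZ siRNAs, DDX21 having 221 and 230.1 CPM and LYAR 31.4 and 34.6 CPM in YT cells. The interaction values were -0.55 ± 0.15 and -0.59 ± 0.15 for DKC1, -0.46 ± 0.13 and -0.44 ± 0.13 for DDX21 and -0.60 ± 0.15 and -0.62 ± 0.15 for LYAR, with cGAS and with STING.

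GNL3 differed in shape from the rest. It had 64.6 and 54.8 CPM in cGAS_YT against 84.6 and 81.5 CPM in cGAS libraries, and 36.7 and 42.5 CPM in STING_YT against 53.5 and 58.1 CPM in STING libraries, while in YT cells it was slightly above control. YAP and TAZ siRNAs lowered it in both depleted backgrounds (log2 changes -0.47 ± 0.10 and -0.49 ± 0.10, limma adjusted p = 0.00239 and 0.00123). Without cGAS_YT replicate 10 the change on cGAS depletion was -0.36 and its call was lost. Relative to the control mean GNL3 stood at 138% in cGAS and 99.3% in cGAS_YT cells, so the fall on cGAS depletion started from a raised level. Its interaction values were -0.65 ± 0.14 with cGAS and -0.66 ± 0.14 with STING (limma adjusted p = 0.00626 and 0.00854). NCL had 317 and 337 CPM in STING_YT against 539 and 485 CPM in STING libraries, an interaction of -0.41 ± 0.12 (limma adjusted p = 0.0496).

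These interaction counts depended on single libraries. For cGAS the count was 1 without control replicate 1, cGAS replicate 8 or cGAS_YT replicate 10, 2 without cGAS replicate 7, 7 without cGAS_YT replicate 9, 8 without YT replicate 4 and 10 without YT replicate 3. For STING it was 0 without STING replicate 14 or STING_YT replicate 15, 1 without control replicate 1 or STING replicate 13, 2 without STING_YT replicate 16, 3 without either cGAS library and 9 without YT replicate 3. The GNL3 interaction with cGAS passed under every omission. For MYC the interactions did not pass with all libraries, but without YT replicate 3 they were 1.41 with cGAS (limma adjusted p = 0.00117) and 1.14 with STING (0.00864), a less negative change on depletion.

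**Figure D5:**
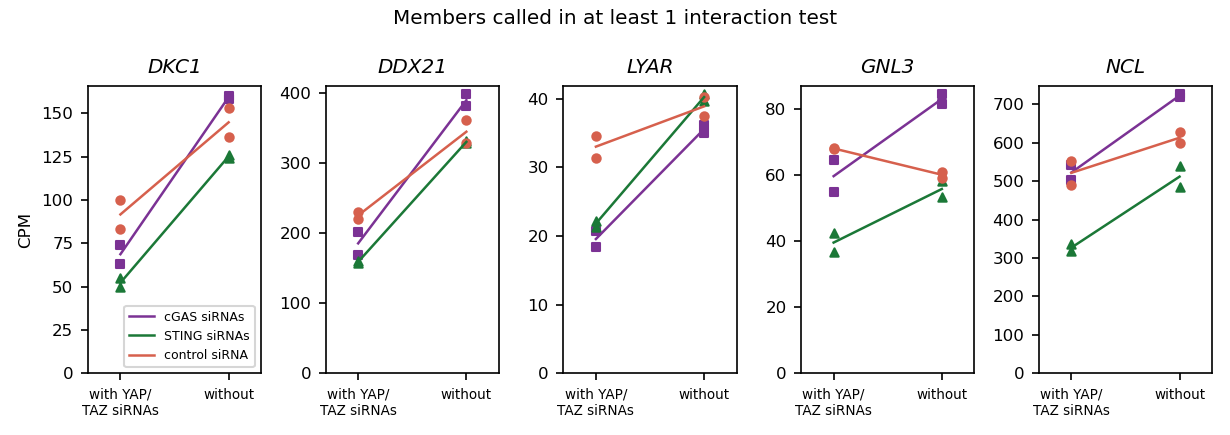
Level (CPM) of DKC1, DDX21, LYAR, GNL3 and NCL in each library with (left) and without (right) YAP and TAZ siRNAs, with lines joining the group means of cGAS-depleted, STING-depleted and control-siRNA cells. The lines of cGAS- and STING-depleted DKC1, DDX21, LYAR and GNL3 are steeper than those of control-siRNA cells, in which GNL3 is 68.0 and 68.2 CPM with and 61.0 and 59.3 CPM without the siRNAs.

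The last pair of comparisons sets the doubly treated cells against YT cells, which shows what the added siRNA did once YAP and TAZ were lowered. Both share the 2 YT libraries. With cGAS siRNA added, 16 of the 35 genes were lower and 1 was higher by limma, where 20.2% of all genes were lower and 20.5% higher. The median log2 change was -0.31, against 0.00 over all genes. In 21 genes both cGAS_YT values lay below both YT values and in 1 above them, where 33% and 32.7% of all genes did. WDR12 had 13.6 and 10.9 CPM in cGAS_YT against 28.5 and 20.2 CPM in YT libraries (log2 change -0.92 ± 0.16, limma adjusted p = 0.000247), NOP14 42.1 and 40.3 CPM in cGAS_YT against 58.3 and 66.0 CPM in YT libraries (-0.58 ± 0.09, 8.66e-05), and FBL 111 and 113 CPM in cGAS_YT against 149 and 188 CPM in YT libraries (-0.58 ± 0.10, 0.000343). GAR1 was the higher one (log2 change 0.37 ± 0.11, limma adjusted p = 0.0119), a call that was lost without YT replicate 4 (0.0736) or cGAS_YT replicate 9 (0.0878) and with only those groups in the fit (0.0857). Small subunit factors made up 7 of the 16 lower genes. Leaving out 1 library gave 10 to 22 called genes, the lowest without cGAS_YT replicate 10.

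With STING siRNA added, 13 of the 35 genes were lower than in YT cells and 0 were higher by limma, where 18% of all genes were lower and 16% higher. The median log2 change was -0.27, against 0.01 over all genes. In 22 genes both STING_YT values lay below both YT values and in 3 above them, where 32.2% and 32.1% of all genes did. DKC1 had 49.6 and 54.9 CPM in STING_YT against 83.2 and 100.03 CPM in YT libraries (log2 change -0.79 ± 0.10, limma adjusted p = 2.25e-05). NCL had 317 and 337 CPM in STING_YT against 489.9 and 553 CPM in YT libraries (-0.67 ± 0.09, 1.66e-05), and GNL3 36.7 and 42.5 CPM in STING_YT against 68.0 and 68.2 CPM in YT libraries (-0.77 ± 0.10, 2.38e-05). None of these 3 overlapped between the groups. The count was 8 without STING_YT replicate 15 and 18 without YT replicate 3. MYC had 4.44 and 5.54 CPM in STING_YT against 5.07 and 1.23 CPM in YT libraries, which overlap.

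Other genes of the pathway were read from 4 lists of RNA polymerase I machinery, snoRNP assembly, small subunit and large subunit factors, 100 tested genes that are not among the 35. In YT cells 41 of these were lower than control and 4 higher by limma, with a median log2 change of -0.25, where 20.9% of all genes were lower and 20.6% higher. On cGAS depletion YAP and TAZ siRNAs lowered 54 and raised 0, with a median of -0.39, where 12.7% of all genes were lower. On STING depletion they lowered 53 and raised 0, also with a median of -0.39, where 19.8% of all genes were lower. Without YAP and TAZ siRNAs the counts were 8 lower and 9 higher in cGAS against control cells and 4 lower and 4 higher in STING against control cells. These counts, of 100 genes, were below the shares over all genes, which were 14.3% lower and 11.1% higher for cGAS and 8.86% lower and 6.14% higher for STING. The lower ones in YT cells included POLR1E, an RNA polymerase I subunit (log2 change -1.11 ± 0.15, limma adjusted p = 2.07e-05), WDR36 and NOL10 of the small subunit pathway (-1.05 ± 0.14 and -0.90 ± 0.12) and RRP15 and EBNA1BP2 of the large subunit pathway (-1.02 ± 0.11 and -0.84 ± 0.10). PIH1D1, an adaptor of snoRNP assembly, was higher (0.42 ± 0.10, limma adjusted p = 0.00417), while 9 of the 11 snoRNP assembly genes were lower, ZNHIT6 by -0.50 ± 0.13. RPF2, which brings the 5S particle to the pre-60S, was lower in cGAS_YT than in cGAS cells (-1.27 ± 0.10) and in STING_YT than in STING cells (-1.36 ± 0.10).

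The dimerization partners, antagonists and regulators of MYC changed in both directions. Of 12 tested genes of this network 7 were higher and 2 lower in YT than in control cells by limma, with a median log2 change of 0.27, where 20.6% of all genes were higher and 20.9% lower. On cGAS depletion YAP and TAZ siRNAs raised 4 and lowered 2 of them, with a median of 0.06, where 15% of all genes were higher and 12.7% lower. On STING depletion they raised 6 and lowered 2, with a median of 0.35, where 19.1% were higher and 19.8% lower. In cGAS against control cells 3 of the 12 were higher and 2 lower, where 11.1% and 14.3% of all genes were. In STING against control cells 1 was higher and 1 lower, where 6.14% and 8.86% of all genes were. The genes higher in YT cells included the repressor MNT (log2 change 0.57 ± 0.12, limma adjusted p = 0.000798) and FBXW7, the ubiquitin ligase subunit that targets MYC protein (0.59 ± 0.11, 0.000412). FBXW7 was also higher than in the same control libraries in cGAS (0.60 ± 0.11, limma adjusted p = 0.000692) and STING cells (0.45 ± 0.11, 0.0103). MXD4, also of this network, was higher in cGAS (0.51 ± 0.09, limma adjusted p = 0.000374) and lower in STING (-0.39 ± 0.09, 0.00564) than in control cells. Against YT cells it was higher in cGAS_YT (0.44 ± 0.09, limma adjusted p = 0.000652) and lower in STING_YT cells (-0.39 ± 0.09, 0.00225). MXI1, another antagonist, was higher in cGAS_YT than in cGAS cells (0.68 ± 0.13, limma adjusted p = 0.000931) and in STING_YT than in STING cells (1.40 ± 0.13, 3.42e-07). MYC protein was not measured.

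Cytosolic ribosomal proteins, the structural parts that these factors assemble, moved differently across the groups. Of 77 genes 52 were lower in YT than in control cells and 54 in cGAS than in control cells by limma, with median log2 changes of -0.33 and -0.37, 2 comparisons that share the control libraries. Over all genes 20.9% were lower in YT and 14.3% in cGAS than in control cells. On cGAS depletion YAP and TAZ siRNAs lowered 10 of the 77, with a median of -0.16, a count near the 12.7% of all genes that were lower there. On STING depletion they lowered 24, with a median of -0.20, where 19.8% of all genes were lower. In STING_YT cells 19 were higher and 2 lower than in YT cells (16% and 18% of all genes), where 13 of the 35 nucleolar genes were lower and 0 higher.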

How the data were processed

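RNA of 12 WI-38 libraries was sequenced from 3′ ends (QuantSeq 3′ mRNA-Seq kit, per the labels' protocols). The tools STAR 2.5.3a, featureCounts and edgeR and the build hg38 are named in the submitters' processing notes, and no strand setting or annotation was at hand. For each gene and library the authors deposited a signal value, which its layout and values show to be a CPM scaled between libraries. These were whole multiples of 1 read, within 0.01 reads, in 100% of cases, so whole reads were recovered, 1 read being worth 0.0472 to 0.0568 CPM.

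Tests were run in R 4.3.3 with limma 3.58.1 on log2(CPM + 1) values (1 fit of 6 group means, 6 residual degrees of freedom, eBayes with trend). A gene needed 1 CPM or more in 2 libraries, which left 13894. The Benjamini-Hochberg adjustment was made separately in 9 contrasts, at a threshold of 0.05. Fold changes on this scale understate those of low genes. The settings varied were the pseudocount (0.25 and 4), the filter (none and 5 CPM), the scaling (median of ratios), the prior (constant), the libraries in the fit (those of the 2 or 4 groups concerned, or all but 1) and the tool (edgeR 4.0.16 and DESeq2 1.42.0 on the recovered reads). The code was tested on simulated data.

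Libraries were grouped by their titles. The genes, the lists and the contrasts were chosen with earlier results of these data known. Named genes were MYC, 1 or more of each role and those with the smallest p; genes of other lists were the 2 with the smallest p of each list. Of the 35 genes, 12 share exon bases with a gene on the opposite strand and 2 with one on the same strand in GENCODE 29, and their reads could not be told apart. Promoters and their build are from RefSeq; genes without a table entry were MYC, NOP58, NOLC1, RRP12, BOP1, RRP1B and RRS1.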

Additional observations from a re-analysis of the deposited data

Results flagged for a closer look

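The effect of YAP and TAZ siRNAs differed between backgrounds, by the interaction test in limma, in 9 cases. Of the 35 genes 4 were called with cGAS and 5 with STING, and DKC1, DDX21, LYAR and GNL3 count in both. Over all genes 5.93% had a negative and 7.5% a positive interaction with cGAS, and 4.53% and 3.35% with STING. With cGAS depletion the interaction on the log2 scale was -0.55 ± 0.15 for DKC1 (SE, adjusted p = 0.0208), -0.46 ± 0.13 for DDX21 (0.0207), -0.60 ± 0.15 for LYAR (0.0154) and -0.65 ± 0.14 for GNL3 (0.00626). With STING depletion it was -0.59 ± 0.15 for DKC1 (0.0215), -0.41 ± 0.12 for NCL (0.0496), -0.44 ± 0.13 for DDX21 (0.0406), -0.62 ± 0.15 for LYAR (0.0197) and -0.66 ± 0.14 for GNL3 (0.00854). Each is negative, meaning a more negative change on depletion of cGAS or STING than with control siRNA. For GNL3 the change with control siRNA was not a fall (log2 difference 0.18 ± 0.10, not called). Both sets use the same YT and control libraries. The call of GNL3 with cGAS held under every omission of 1 library, that of GNL3 with STING was lost without STING replicate 14 (adjusted p = 0.0554) or STING_YT replicate 15 (0.0682), and the others were lost under at least 1 omission.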

How the results depend on the processing

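No paired analysis was possible because each replicate number occurs in only 1 library. No called value changed sign under the alternatives run. Values near 0 that were not called did, such as the median log2 change in STING against control, which was -0.04 and became 0.02 without control replicate 2. The counts of called genes in YT against control, cGAS_YT against cGAS, STING_YT against STING and STING_YT against YT stayed within 1.5 times the count in the report under all alternatives other than leaving out a library. Fitted with a constant prior, limma called 2 genes in cGAS against control (4 with the settings of the report), 0 in STING against control (1), 2 in the cGAS interaction (4) and 2 in the STING interaction (5). Over all genes it called, in the same order, 3073 (3528 with the settings of the report), 1529 (2084), 1430 (1866) and 703 (1095). With only the compared groups in the fit limma called 10 of the 35 in cGAS against control, 4 in STING against control, 8 in cGAS_YT against YT (17) and 2 in the cGAS interaction. Over all genes this fit called 4461, 2700, 3842 (5656 with the settings of the report) and 1296 in the same order. In STING against control the count was also 2 with a pseudocount of 4, 3 with a minimum of 5 CPM, 2 with edgeR and 3 with DESeq2. The counts over all genes were 2099, 2079, 2043 and 2106 in the same order. Single calls were lost in the same way. In YT against control a constant prior ended those of NOP56 (limma adjusted p = 0.055), NCL (0.104) and BYSL (0.06), and a fit of only those groups ended those of NOP56 (0.0658), NCL (0.191), NOP14 (0.0761) and BYSL (0.0758). In cGAS against control NPM1 was lost with a constant prior (0.124), median-of-ratios scaling (0.067) and DESeq2 (0.0663), and NOP14 with a constant prior (0.0526). In STING against control NOP58 was lost with a constant prior (0.114). In cGAS_YT against cGAS a constant prior ended the calls of NPM1 (0.08), RRP9 (0.0856) and BYSL (0.0642). The interactions of DKC1 and DDX21 were lost with a constant prior (0.0877 and 0.0943 for cGAS, 0.0999 and 0.147 for STING) and, for cGAS, with only the groups concerned (0.053 and 0.0638). That of NCL with STING was lost with a constant prior (0.157), only the groups concerned (0.0978), a pseudocount of 0.25 (0.0506) and edgeR (0.0543). Causes were not tested.

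Leaving out each library in turn gave 16 to 24 called genes in YT against control, 2 to 9 in cGAS against control, 0 to 4 in STING against control, 19 to 32 in cGAS_YT against cGAS, 25 to 30 in STING_YT against STING, 10 to 22 in cGAS_YT against YT, 8 to 18 in STING_YT against YT, 1 to 10 in the cGAS interaction and 0 to 9 in the STING interaction. The median log2 change ranged over all alternatives between -0.50 and -0.34 in YT against control, -0.77 and -0.52 in cGAS_YT against cGAS and -0.67 and -0.63 in STING_YT against STING. With 1 library left in a group, it is assumed to vary like the others. Depth limits MYC most, with 24 reads in YT replicate 4.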
